A study of Mus musculus with 10 samples.

Results

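The genes described here are 46 genes of homologous recombination, the Fanconi anemia pathway, mismatch repair, the damage checkpoint, end joining and single-strand break repair. They were taken by symbol from a deposited table of transcript levels in regenerating mouse liver, and all 46 were among its 23535 loci with values. The table holds 6 libraries of liver taken 40 h after partial hepatectomy. This operation removes most of the liver and sends the remaining hepatocytes back into the cell cycle. All mice carried floxed Arid1a alleles (Fl/Fl), were of mixed C57/B6 and 129 background and were at postnatal day 90. Arid1a codes for a DNA-binding protein of the chromatin remodeller SWI/SNF. The 3 WT libraries came from mice without the Alb-cre transgene, and the 3 KO libraries from mice with it. The albumin promoter drives Cre in hepatocytes, so liver cells in which, and in whose precursors, it was never active keep the gene in KO mice. The 4 libraries made before hepatectomy, 2 WT and 2 KO, were not analysed here, so WT at 40 h was the only control. Whether the libraries came from separate mice is not in the labels, so p-values measure the spread between these libraries, which may be technical. Where WT livers and KO livers are named below, the libraries are meant, and they may not be separate animals.

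Homologous recombination repairs a double-strand break by copying the sister chromatid. The broken ends are resected to single strands, BRCA proteins prepare these for strand exchange, and helicases and nucleases complete the exchange. Since a sister chromatid exists only after replication, many genes of this route are E2F targets whose transcripts accumulate from S phase onwards, whereas end joining and single-strand break repair act at any time and their genes are expressed in resting cells too. From this textbook knowledge 17 members were placed in a cell-cycle-linked class (Brca1, Brca2, Bard1, Rad54l, Rad54b, Blm, Exo1, Fanca, Fancb, Fancd2, Fanci, Brip1, Chek1, Topbp1, Msh6, Xrcc2 and H2afx). A further 6 were called intermediate (Palb2, Rad51c, Rbbp8, Fancg, Fancm and Chek2), and the other 23 constitutive.

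Levels are given in FPKM, a fragment count divided by transcript length and by the mapped fragments of a library. FPKM summed to between 409142 and 495209 per library, and depth ranged from 0.844 (KO replicate 3) to 1.20 (WT replicate 3) of that of WT replicate 1; absolute depth is unknown. Arid1a stood at 8.68, 8.45 and 8.49 FPKM across the WT livers, against 4.41, 5.57 and 6.15 across the KO livers, so that every KO library lay below every WT library (log2 difference -0.59, SE 0.15, adjusted p = 0.207). The 8 hepatocyte markers summed to between 37121 and 45676 FPKM. The defining markers of T and NK cells and of B and plasma cells all had a mean under 1 FPKM. Kupffer cell and macrophage markers summed to 68.9 to 95.0 FPKM in WT and 76.7 to 132 in KO. Stellate cell markers summed to 119 to 123 FPKM in WT and 86.6 to 149 in KO, and sinusoidal endothelial markers to 53.9 to 77.5 and 55.2 to 85.0. Cholangiocyte markers summed to 12.1 to 21.1 FPKM in WT and 12.5 to 29.0 in KO, neutrophil markers to 11.6 to 36.9 and 14.0 to 29.5, and erythroid markers to 12.2 to 17.9 and 17.4 to 20.5. These sums are carried by abundant markers and do not show every member: Spp1 held 8.07 to 25.1 FPKM of the cholangiocyte sum and Dcn 47.4 to 96.1 of the stellate sum. Named after their values were seen, Sox9 was 0.744 to 1.83 FPKM in WT and 0.0621 to 0.371 in KO, and Reln 8.88 to 10.5 and 14.6 to 21.9, both without overlap. Other markers of these 2 lists went both ways. The KO mean was 1.18 times the WT mean for Spp1 and 0.676 times for Krt7. It was 0.623 times for Lrat and 1.29 times for Pdgfrb. Markers of other lists were separated too, among them Marco and Cdh5 (KO above) and Nkg7 (KO below, under 1 FPKM and untested). Their lists also went both ways. The KO mean was 2.35 times the WT mean for Marco and 0.973 times for the macrophage marker Emr1. It was 1.39 times for Cdh5 and 0.978 times for the endothelial marker Stab1. For Nkg7 it was 0.107 times and for the T cell marker Cd3d, also under 1 FPKM, 1.45 times. The part of other cell types in the results was not tested. In bulk tissue, fewer cells of a type and less RNA per cell cannot be told apart.

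KO was compared with WT to ask which repair transcripts differ when hepatocytes of a regenerating liver lack Arid1a. Of the 46 members, 45 had a mean of at least 1 FPKM and were tested on log2(FPKM + 1), a scale that understates the change of genes near or under 1 FPKM. The remaining one was Exo1. No member passed an adjusted p of 0.05 in limma, where 13 of all 10956 genes tested did (0.119%). The members' adjusted p ranged from 0.185 to 0.992. At an unadjusted p under 0.05, 8 members were higher in KO (H2afx, Chek2, Fancg, Xrcc6, Xrcc1, Atm, Parp1 and Lig3), against 11.2% of all genes tested, and 1, Rad51b, was lower, against 3.99%. The KO libraries all lay above the WT libraries in 6 members (Fancg, Atm, Xrcc6, Xrcc1, Lig3 and Parp1), against 16.7% of all genes tested. They all lay below in Rad51b alone among the members, against 5.44% of all genes. The counts of separated members lie near the background of all genes, and that of members higher at an unadjusted p lies somewhat above it.

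The fitted difference was above 0 for 43 of the 45 tested members and below it for Rad51b and Xrcc4. The median log2 difference was 0.51 over the members and 0.15 over all genes tested, of which 69.7% lay above 0. After median-of-ratios rescaling of the libraries the median of all genes was 0.01. The KO libraries then all lay above WT in 4 members (Fancg, Xrcc6, Xrcc1 and Lig3), against 7.87% of all genes, and below it in Rad51b, against 9.9%.

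**Figure D1:**
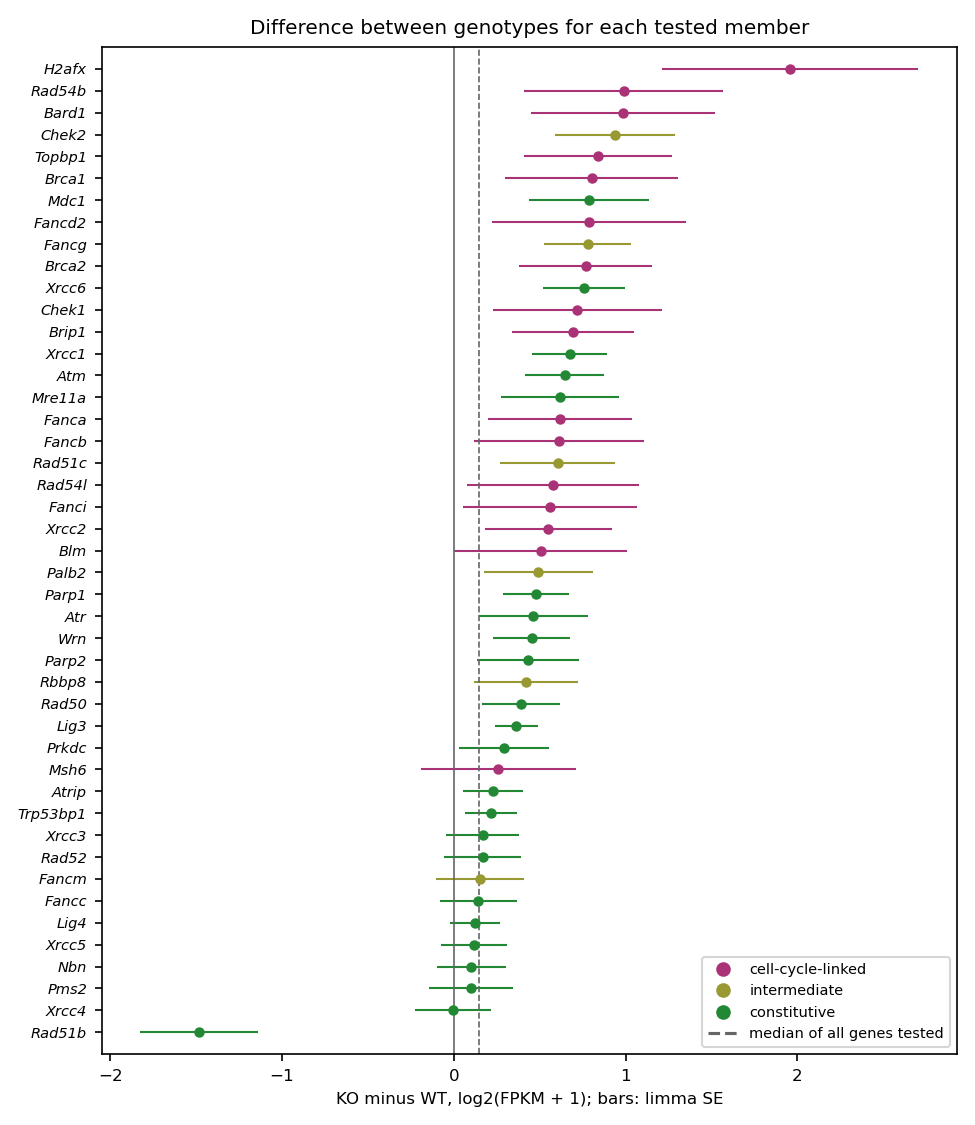
Difference between KO and WT for each of the 45 tested members, as KO minus WT on the log2(FPKM + 1) scale, with limma standard errors as bars (3 libraries per genotype) and colours for the 3 classes. The dashed line is the median of all genes tested, 0.15; H2afx has the highest difference and the widest bar, and Rad51b stands alone at -1.48.

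The cell-cycle-linked members had a wider range between libraries than the constitutive ones, and libraries of the same genotype stood apart. Over the 16 tested cell-cycle-linked members the median ratio of the highest to the lowest library was 7.20. It was 5.82 over the 6 intermediate members, 2.32 over the 23 constitutive members and 1.86 over the 10807 loci above 0 in all libraries. Such ratios grow as values near 0, and the classes differed in level. The median of the mean FPKM was 2.40 over the cell-cycle-linked, 1.47 over the intermediate and 3.40 over the constitutive members. The part of level in these ranges was not tested. WT replicate 3 was the highest WT library in 16 of 16 cell-cycle-linked members and in 20 of 23 constitutive members, against 43.4% of all genes tested. KO replicate 2 was the lowest KO library in 15 of 16 and 16 of 23, against 35.0% of all genes. Both held together in 15 of 16 cell-cycle-linked and 13 of 23 constitutive members, against 19.6% of all genes. KO replicate 2 lay within the range of the WT libraries in 14 of the 16, against 35.6% of all genes. The genotypes were separated in 0 of the 16, where 16.7% of all genes had all KO libraries above WT and 5.44% below.

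**Figure D2:**
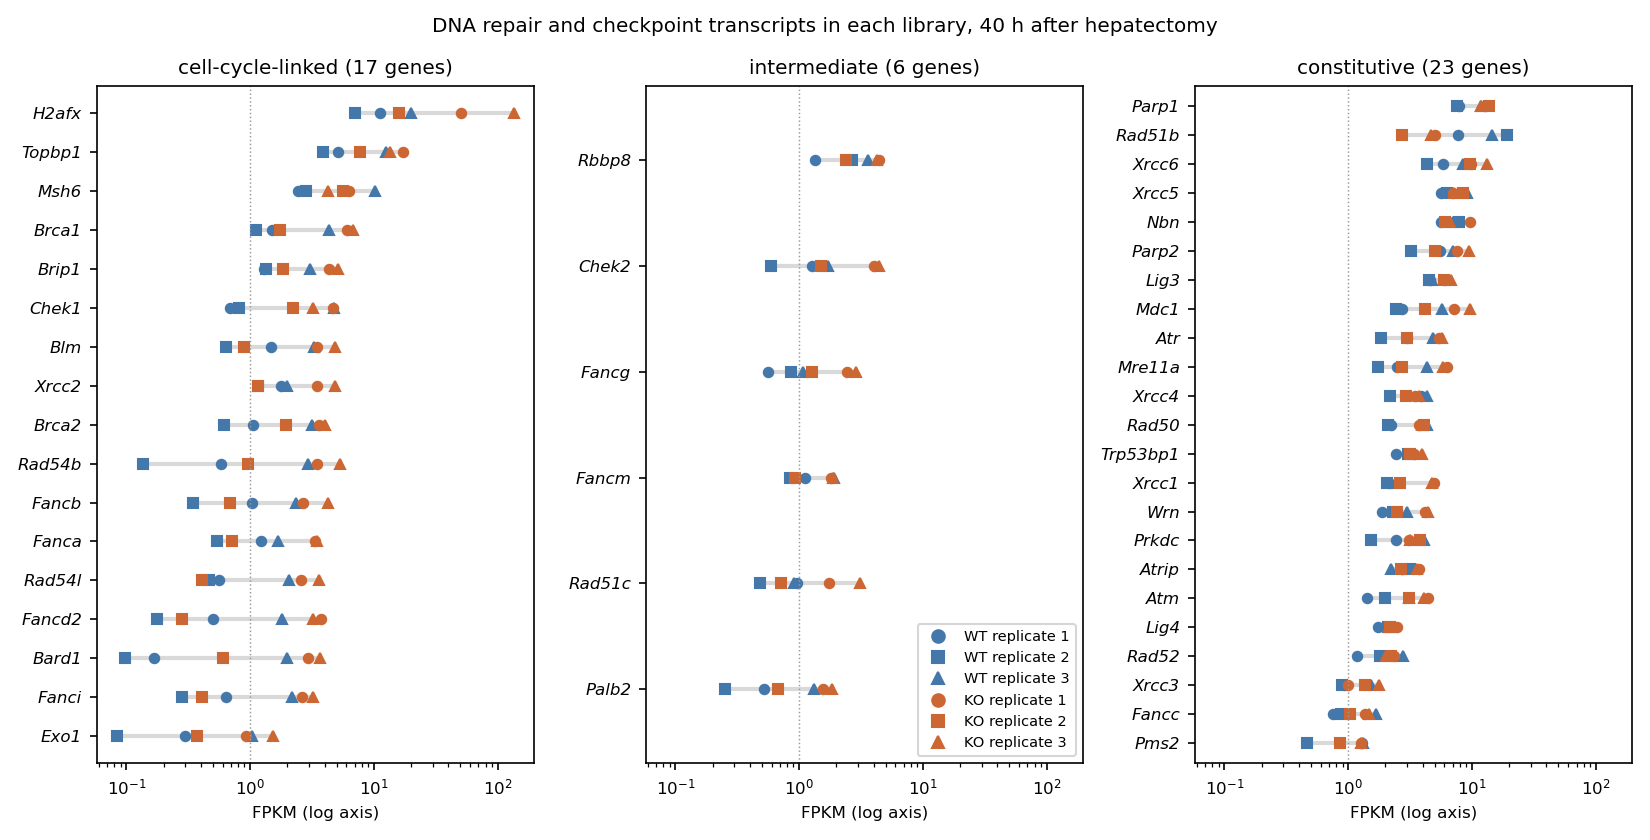
FPKM of each of the 46 members in each library on a log axis, by class, with WT in blue, KO in orange, 1 marker shape per replicate number and a grey bar from the lowest to the highest library. The dotted line marks 1 FPKM; the bars of the cell-cycle-linked genes are long and those of most constitutive genes short, apart from Rad51b.

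A score per library, the median over a class of log2(FPKM + 1) relative to the mean of each gene in all 6 libraries, shows the same order. The cell-cycle-linked score was -0.62, -0.92 and 0.41 in WT replicates 1 to 3 and 0.69, -0.56 and 0.89 in KO replicates 1 to 3. KO replicates 1 and 3 were highest, WT replicate 3 came next, and KO replicate 2 lay beside WT replicates 1 and 2. The constitutive score ran in a narrower range, -0.29, -0.38 and 0.18 in the WT livers, against 0.15, -0.10 and 0.22 in KO livers. The intermediate score, -0.37, -0.46 and 0.05 in the WT livers, against 0.43, -0.23 and 0.63 in KO livers, lay between them in range. Removing H2afx, the member with the highest difference, left the cell-cycle-linked score between -0.91 and 0.88.

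Markers of proliferation moved with these scores, and their part in the differences between libraries was not tested. The score of 12 S phase genes was -0.74, -1.24 and 0.71 in the WT livers, against 0.62, -0.23 and 0.74 in KO livers, so WT replicate 3 stood with KO replicates 1 and 3. The score of 12 mitosis genes was -1.32, -1.55 and -0.31 in the WT livers, against 1.98, -1.39 and 2.62 in KO livers, so WT replicate 3 stood well below these. Pcna, the sliding clamp of replication, stood at 19.0, 16.8 and 65.9 FPKM in the WT livers, against 82.0, 31.1 and 57.0 in KO livers. Mki67, present in cycling cells, stood at 1.82, 1.43 and 6.98 FPKM in the WT livers, against 41.6, 1.57 and 66.7 in KO livers. Ccne1, which encodes the cyclin of S phase entry, was the marker with the smallest p (0.210 after adjustment) and was separated by genotype, with 1.06, 1.85 and 3.85 FPKM in the WT livers, against 6.43, 5.01 and 7.27 in KO livers.

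**Figure D3:**
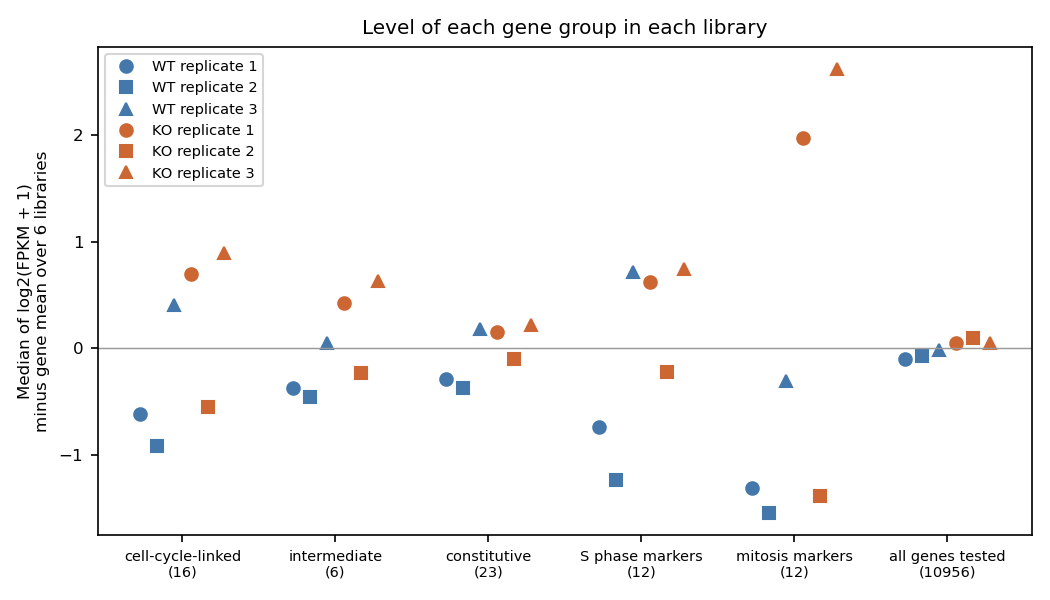
Score of each gene group in each library (median over the group of log2(FPKM + 1) minus the gene's mean over 6 libraries), with the number of genes under each name, WT in blue and KO in orange. The cell-cycle-linked members spread from -0.92 to 0.89, the constitutive members from -0.38 to 0.22, and the mitosis markers from -1.55 to 2.62.

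The median log2 difference between KO and WT was 0.71 over the cell-cycle-linked members, 0.55 over the intermediate members and 0.29 over the constitutive members. The cell-cycle-linked median thus exceeded the constitutive one by 0.41, while the difference of the 2 scores within a library ranged from -0.54 to 0.23 in WT and from -0.46 to 0.67 in KO, so the genotypes overlapped. The gap of 0.41 depended on single libraries. It was 0.17 without KO replicate 1, 0.25 without KO replicate 3 and 0.26 without WT replicate 2, but 0.67 without WT replicate 3 and 0.72 without KO replicate 2. The cell-cycle-linked median itself was 0.47 without WT replicate 2 and 1.07 without KO replicate 2.

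E2F factors bind short GC-rich sites near the start of many S phase genes, so the windows from 250 bases before to 50 bases after each annotated start were searched (RefSeq, GRCm38.p6, both strands). Windows were matched for 36 members; none was matched for Rad50, Nbn, Rbbp8, Exo1, Wrn, Xrcc2, Rad54b, Fancd2, H2afx and Prkdc. A site with the letters TTTCCCGC, TTTGGCGC, TTTGCCGC or TTTCGCGC was in the window of 4 of 12 cell-cycle-linked members (Bard1, Brca2, Msh6 and Topbp1). It was in 3 of 5 intermediate members (Chek2, Fancg and Rad51c) and in 2 of 19 constitutive members (Mdc1 and Xrcc6). Of the tested genes with a window 4.86% held one, and of all windows 2.26%. The CHR element of mitotic genes (TTTGAA or TTCGAA) was in 1 of 12, 0 of 5 and 2 of 19 members of the 3 classes, against 16.7% of tested genes, and CCAAT in 7 of 12, 3 of 5 and 11 of 19, against 43.9%. The letters of these motifs were searched separately, and matches may overlap. In Msh6 the match followed the start, and in Rad51c it crossed an annotated start and followed another. The stretches upstream of the start around the E2F letters are shown for the other 7 members, whose match lies wholly upstream, and they come from all 3 classes. Each runs 5′ to 3′ on the strand of the gene, with the match or its reverse complement in capitals.
Bard1 (chr1:71103134-71103221, minus strand): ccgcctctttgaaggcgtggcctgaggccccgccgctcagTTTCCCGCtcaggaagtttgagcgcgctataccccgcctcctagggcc
Brca2 (chr5:150522413-150522500, plus strand): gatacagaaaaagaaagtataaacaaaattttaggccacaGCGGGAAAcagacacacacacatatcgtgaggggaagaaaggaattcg
Topbp1 (chr9:103305158-103305245, plus strand): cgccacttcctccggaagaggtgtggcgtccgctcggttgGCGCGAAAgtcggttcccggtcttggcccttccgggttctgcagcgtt
Chek2 (chr5:110839791-110839878, plus strand): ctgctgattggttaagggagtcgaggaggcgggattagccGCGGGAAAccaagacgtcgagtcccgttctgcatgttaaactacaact
Fancg (chr4:43010306-43010393, minus strand): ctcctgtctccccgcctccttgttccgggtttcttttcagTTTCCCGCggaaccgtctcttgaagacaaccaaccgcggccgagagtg
Mdc1 (chr17:35841442-35841497, plus strand): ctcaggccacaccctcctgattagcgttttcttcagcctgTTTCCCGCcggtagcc
Xrcc6 (chr15:82016283-82016368, plus strand): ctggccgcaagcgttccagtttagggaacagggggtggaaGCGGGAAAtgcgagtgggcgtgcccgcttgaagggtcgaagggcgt
The match began 209 bases before the start in Bard1, 168 in Brca2, 129 in Topbp1, 152 in Chek2, 52 in Fancg, 46 in Xrcc6 and 16 in Mdc1. A match is a description of the letters and not a shown binding site.

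No gene of break recognition and end resection was separated by genotype (0 of 6 tested). Among all genes tested 16.7% had all KO libraries above WT and 5.44% below, so a count of 0 of 6 lies near the background. The complex of MRE11, RAD50 and NBN recognises a broken end and begins its resection. Mre11a stood at 2.5, 1.74 and 4.37 FPKM in the WT livers, against 6.30, 2.73 and 5.87 in KO livers, and KO replicate 2 lay inside the WT range (log2 difference 0.62, SE 0.34, adjusted p = 0.413). Nbn stood at 5.61, 7.84 and 6.99 FPKM in the WT livers, against 9.60, 6.09 and 6.68 in KO livers, with overlapping groups (0.10, SE 0.20, adjusted p = 0.824). Wrn, the Werner syndrome helicase, stood at 1.88, 2.30 and 2.98 FPKM in the WT livers, against 4.14, 2.46 and 4.44 in KO livers, where again only KO replicate 2 overlapped WT (0.45, SE 0.23, adjusted p = 0.379). Exo1, the exonuclease of long-range resection and the one untested member, stood at 0.300, 0.0835 and 1.04 FPKM in the WT livers, against 0.924, 0.373 and 1.54 in KO livers. Its highest library stood 18.4 times above its lowest. WT replicate 2 was lowest, as in 11 of the 16 tested cell-cycle-linked genes and 23.4% of all genes tested. KO replicate 3 was highest, as in 12 of the 16 and 21.9% of all genes. Of the other resection genes, Blm, the Bloom syndrome helicase, spanned 7.57-fold between libraries, Rbbp8, which encodes the resection activator CtIP, 3.28-fold and Rad50 2.06-fold.

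The BRCA mediators shared one lowest and one highest library. Of these 4 genes 0 were separated by genotype, near the 16.7% above and 5.44% below of all genes tested. BRCA1 works as a heterodimer with BARD1, and PALB2 links it to BRCA2, which acts at the resected single strand. Brca1 (chr11:101488764-101551955, mm10) stood at 1.5, 1.12 and 4.37 FPKM in the WT livers, against 6.06, 1.73 and 6.83 in KO livers (log2 difference 0.80, SE 0.50, adjusted p = 0.462). Bard1 (chr1:71027535-71102972) stood at 0.169, 0.0985 and 1.99 FPKM in the WT livers, against 2.96, 0.607 and 3.68 in KO livers (0.99, SE 0.54, adjusted p = 0.405). Brca2 (chr5:150522623-150569749) stood at 1.05, 0.621 and 3.15 FPKM in the WT livers, against 3.59, 1.95 and 4.03 in KO livers (0.77, SE 0.39, adjusted p = 0.380). In all of these genes WT replicate 2 was lowest and KO replicate 3 highest, and WT replicate 3 overlapped the KO libraries. Palb2 had the same lowest and highest library, 0.250 and 1.86 FPKM. Bard1 spanned 37.4-fold between libraries and Brca1 6.09-fold, so their ratio was not constant. Bard1 was 0.113, 0.0878 and 0.454 of Brca1 in the WT livers, against 0.488, 0.350 and 0.539 in KO livers, and these overlapped (exact two-sided permutation p = 0.2; 0.6 after adjustment over the 12 pairs of partners compared). The low WT values of Bard1 make its ratios imprecise. The ratio of Palb2 to Brca2 stayed between 0.349 and 0.498 in the 6 libraries.

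Rad51b, Rad51c, Xrcc2 and Xrcc3 encode related proteins that help to assemble the nucleoprotein filament of strand exchange. Rad51b was the one member with a lower level in every KO library. Rad51b (chr12:79297282-79814690) stood at 7.71, 19.2 and 14.6 FPKM in the WT livers, against 5.0, 2.71 and 4.66 in KO livers. Its WT mean of 13.8 ± 5.78 FPKM was 3.35 times its KO mean of 4.12 ± 1.24 FPKM (SD, n = 3 each). The log2 difference was -1.48 (SE 0.34) with an adjusted p of 0.185, the smallest of any member, and an exact permutation test (two-sided) gave p = 0.1, the smallest that 3 against 3 libraries allow. It did not pass the threshold under any alternative: its adjusted p ran from 0.138 to 0.410, and leaving out 1 library moved the difference between -1.82 and -1.22. The table gives 1 value per locus, and GENCODE lists isoforms of this long gene with different ends, so the values do not tell these isoforms apart. In WT the gene was highest in replicate 2, the library with the lowest cell-cycle-linked score. The other libraries did not show an opposite order. Rad51b was lowest of WT in replicate 1 and lowest of KO in replicate 2, where that score was also low (-0.62 and -0.56).

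The related genes did not follow Rad51b. Rad51c, whose product joins RAD51B in a shared complex, stood at 0.965, 0.483 and 0.907 FPKM in the WT livers, against 1.75, 0.719 and 3.12 in KO livers, with KO replicate 2 inside the WT range (log2 difference 0.60, SE 0.34, adjusted p = 0.413). Xrcc2 stood at 1.77, 1.17 and 2.0 FPKM in the WT livers, against 3.50, 1.16 and 4.82 in KO livers, with KO replicate 2 the lowest of the 6 (0.55, SE 0.37, adjusted p = 0.489). The Rad51b to Rad51c ratio was 7.99, 39.7 and 16.1 in the WT livers, against 2.85, 3.77 and 1.49 in KO livers, and every KO library lay below every WT library (exact two-sided permutation p = 0.1, the smallest possible; 0.6 after adjustment over the 12 pairs). Xrcc3 and Rad52, a strand-annealing protein, had highest to lowest ratios of 1.97 and 2.32, and the value of Rad52 is itself the constitutive median. The motor proteins of strand exchange had wider ranges, Rad54l by 8.84-fold and Rad54b, from 0.136 FPKM in WT replicate 2 to 5.29 in KO replicate 3, by 39.0-fold, the widest of all members.

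**Figure D4:**
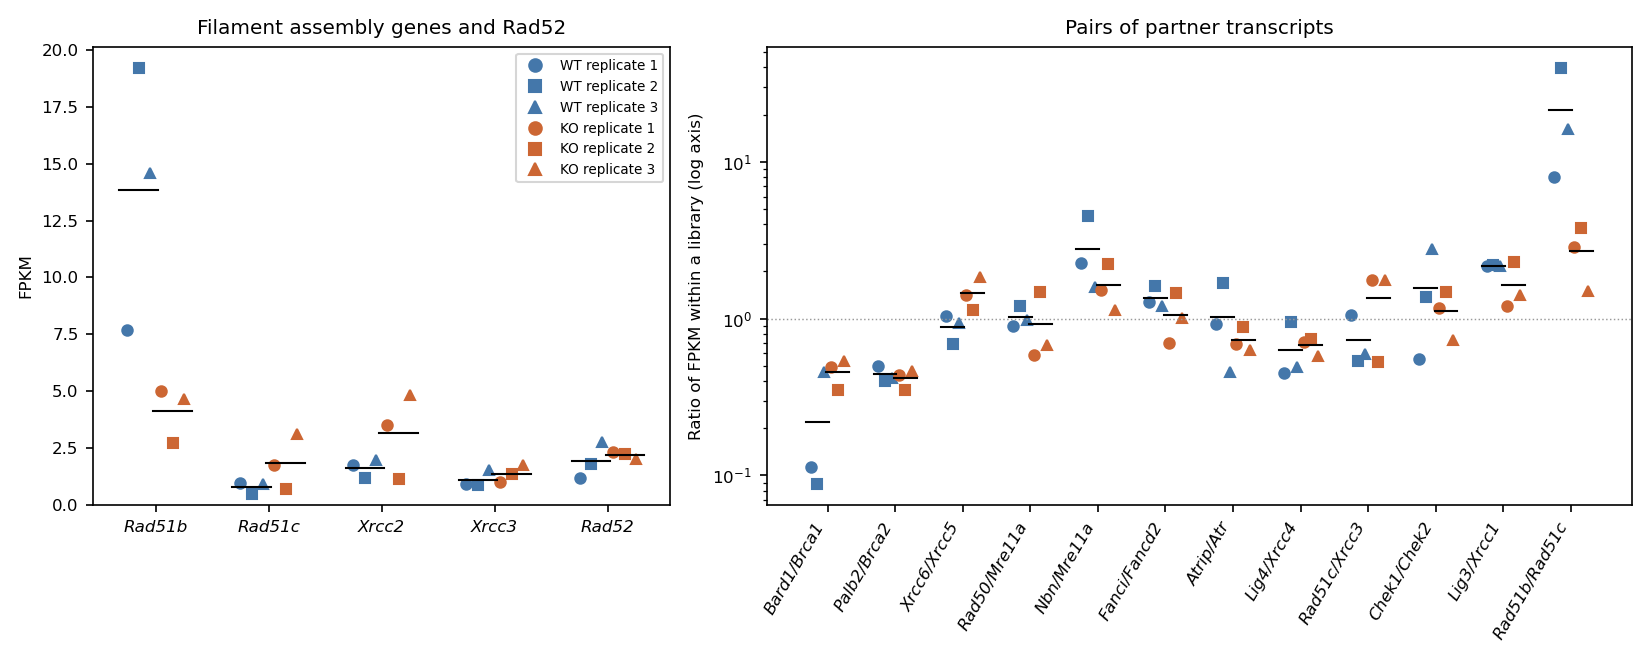
Left, FPKM of Rad51b, Rad51c, Xrcc2, Xrcc3 and Rad52 in each library, with black lines for the mean of 3 libraries. Right, the within-library FPKM ratio of 12 pairs of partner transcripts on a log axis; the KO libraries lie apart from the WT libraries in Xrcc6 to Xrcc5 and in Rad51b to Rad51c, and the Bard1 to Brca1 ratio is low in WT replicates 1 and 2.

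The Fanconi anemia pathway repairs interstrand crosslinks: a core complex that includes FANCA, FANCB, FANCC, FANCG and FANCM leads to the ubiquitination of FANCD2 and FANCI, and BRIP1 is a helicase that works with BRCA1. Fancg (chr4:43002337-43010301) stood at 0.562, 0.857 and 1.08 FPKM in the WT livers, against 2.43, 1.27 and 2.91 in KO livers. Every KO library lay above every WT library, and the KO mean was 2.65 times the WT mean (log2 difference 0.78, SE 0.25, adjusted p = 0.273). Brip1 stood at 1.30, 1.34 and 3.04 FPKM in the WT livers, against 4.31, 1.85 and 5.12 in KO livers, an overlap of KO replicate 2 with WT (0.70, SE 0.36, adjusted p = 0.384). Fancb stood at 1.04, 0.349 and 2.34 FPKM in the WT livers, against 2.70, 0.687 and 4.27 in KO livers, also overlapping (0.61, SE 0.49, adjusted p = 0.557). The paired substrates Fancd2 and Fanci spanned 21.02-fold and 11.3-fold between libraries and Fanca 6.38-fold, while Fancc and Fancm spanned 2.23-fold and 2.27-fold. Members of one complex therefore differed in their spread.

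In the damage checkpoint, the kinases ATM and ATR sense breaks and stalled forks, CHEK2 and CHEK1 carry their signal, TOPBP1 activates ATR, and phosphorylated H2AX marks the chromatin around a break. H2afx (chr9:44334715-44336073) stood at 11.2, 6.99 and 20.02 FPKM in the WT livers, against 50.9, 16.0 and 136 in KO livers. Its mean in KO was 5.30 times that in WT and its log2 difference of 1.96 (SE 0.75) was the highest of the members, but KO replicate 2 lay below WT replicate 3 and the adjusted p was 0.309. The same libraries, KO replicates 1 and 3, held 65.2 and 117 FPKM of the mitosis marker Ube2c, against 3.08 in KO replicate 2 and 1.22 to 4.51 in WT. Chek2 stood at 1.26, 0.592 and 1.71 FPKM in the WT livers, against 4.01, 1.52 and 4.44 in KO livers, overlapping through KO replicate 2 (0.94, SE 0.35, adjusted p = 0.306). Topbp1 stood at 5.14, 3.88 and 12.5 FPKM in the WT livers, against 17.1, 7.80 and 13.5 in KO livers, with KO replicate 2 below WT replicate 3 (0.84, SE 0.43, adjusted p = 0.385). Both of these genes were lowest in WT replicate 2.

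Atm (chr9:53437122-53536671) was separated by genotype by a narrow margin, with 1.43, 1.97 and 3.08 FPKM in the WT livers, against 4.38, 3.11 and 4.09 in KO livers (log2 difference 0.65, SE 0.23, adjusted p = 0.292). After median-of-ratios rescaling its groups overlapped. Its relative Atr spanned 3.11-fold between libraries and Atrip, which encodes the partner of ATR, 1.69-fold; the ratio of Atrip to Atr overlapped between genotypes. The scaffold genes Mdc1 and Trp53bp1, whose proteins gather at phosphorylated H2AX, differed in spread, 3.95-fold and 1.64-fold. Chek1, named here after its values were seen, had a different order from Chek2. It stood at 0.693, 0.809 and 4.73 FPKM in the WT livers, against 4.68, 2.24 and 3.26 in KO livers, so that WT replicate 3 was highest. In the S phase score this library stood level with KO replicates 1 and 3, and in the mitosis score below both.

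Msh6, whose product recognises mismatches behind the replication fork, was likewise highest in WT replicate 3. It stood at 2.42, 2.84 and 10.3 FPKM in the WT livers, against 6.34, 5.61 and 4.23 in KO livers, so WT replicate 3 stood above all KO libraries and the difference of 0.26 (SE 0.45, adjusted p = 0.799) was the lowest of the cell-cycle-linked members. Without WT replicate 1 it was -0.06. Pms2, a mismatch repair endonuclease, stood at 1.29, 0.463 and 1.31 FPKM in the WT livers, against 1.27, 0.852 and 1.26 in KO livers, with WT replicate 2 lowest and the groups overlapping (0.10, SE 0.24, adjusted p = 0.856). WT replicate 3 was the highest of the 6 libraries in 2 of the 16 cell-cycle-linked members, Msh6 and Chek1, near the 11.8% of all genes tested. KO replicate 3 was highest in 12 of the 16, against 21.9% of all genes.

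End joining religates broken ends without a template: the Ku heterodimer of XRCC6 (Ku70) and XRCC5 (Ku80) binds the ends, PRKDC is the kinase it recruits, and XRCC4 and LIG4 seal the break. Xrcc6 (chr15:82016369-82040084) stood at 5.89, 4.33 and 8.41 FPKM in the WT livers, against 9.88, 9.73 and 13.3 in KO livers. Every KO library lay above every WT library, KO replicate 2 included, and the KO mean was 1.77 times the WT mean (log2 difference 0.76, SE 0.24, adjusted p = 0.265). Xrcc5 (chr1:72307421-72394953) stood at 5.64, 6.31 and 9.04 FPKM in the WT livers, against 6.98, 8.52 and 7.22 in KO livers, with overlapping groups (0.12, SE 0.19, adjusted p = 0.782). The Xrcc6 to Xrcc5 ratio was 1.04, 0.687 and 0.930 in the WT livers, against 1.42, 1.14 and 1.84 in KO livers. All KO libraries lay above all WT libraries in this ratio, which a common scaling of a library leaves as it is (exact two-sided permutation p = 0.1, the smallest possible; 0.6 after adjustment over the 12 pairs). Prkdc stood at 2.45, 1.52 and 4.09 FPKM in the WT livers, against 3.08, 3.81 and 3.15 in KO livers, overlapping (0.29, SE 0.26, adjusted p = 0.602). Xrcc4 and Lig4 spanned 1.99-fold and 1.40-fold between libraries, with adjusted p of 0.992 and 0.700.

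All KO libraries lay above WT in 3 of 4 single-strand break repair members, Xrcc1, Lig3 and Parp1, and after median-of-ratios rescaling in 2 of 4, Xrcc1 and Lig3 (16.7% and 7.87% of all genes tested). PARP1 and PARP2 sense the nick, and XRCC1 is the scaffold that holds the ligase LIG3. Xrcc1 (chr7:24547150-24573438) was nearly constant in WT at 2.13, 2.04 and 2.22 FPKM and reached 4.98, 2.60 and 4.78 in the KO livers (log2 difference 0.67, SE 0.22, adjusted p = 0.275). All KO libraries lay above WT, KO replicate 2 by the least. Without KO replicate 2 the difference was 0.91 (SE 0.15) and limma's adjusted p 0.0430. Xrcc1 was then the single member called, in a comparison that called 2.21% of the 10932 genes it tested, and no member was called under any other alternative.

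Lig3 (chr11:82781135-82804274) was also close within each genotype, at 4.61, 4.49 and 4.79 FPKM in the WT livers, against 6.0, 5.98 and 6.78 in KO livers, the KO mean being 1.35 times the WT mean (log2 difference 0.36, SE 0.12, adjusted p = 0.284). It was separated by genotype before and after rescaling; its locus overlaps Rffl, and no label used here says whether the libraries kept strand. The Lig3 to Xrcc1 ratio was 2.16, 2.20 and 2.16 in the WT livers, against 1.21, 2.30 and 1.42 in KO livers, with KO replicate 2 beside WT. Parp1 stood at 7.79, 7.64 and 11.7 FPKM in the WT livers, against 12.9, 13.8 and 11.8 in KO livers, separated only by the gap between WT replicate 3 and KO replicate 3 (0.48, SE 0.19, adjusted p = 0.314), and its groups overlapped after rescaling. Parp2 stood at 5.47, 3.21 and 7.08 FPKM in the WT livers, against 7.58, 5.05 and 9.44 in KO livers, overlapping (0.43, SE 0.30, adjusted p = 0.502). Of the 16 tested cell-cycle-linked members 0 were separated by genotype. Of the 23 constitutive ones 5 were higher and 1 lower in all KO libraries, near the 16.7% and 5.44% of all genes tested. After rescaling 3 were higher (Xrcc6, Xrcc1 and Lig3) and 1 lower (Rad51b), against 7.87% and 9.9% of all genes tested.

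Other members share their locus with a neighbour in the table, so their values may hold reads of that neighbour: Atr, Fanca, Fanci, Msh6, Rad54b, Rad54l, Trp53bp1 and Xrcc3.

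The wider pathway was described with 127 further repair genes, of which 123 were in the table and 115 were tested. None passed an adjusted p of 0.05; at an unadjusted p under 0.05, 12 were higher in KO and 1 lower, against 11.2% and 3.99% of all genes tested. Their median log2 difference was 0.29. In 14 of them all KO libraries lay above WT and in 1 below, against 16.7% and 5.44% of all genes tested, so neither count exceeded the background. Among 28 tested further recombination genes, Mus81, a nuclease that cuts branched DNA, stood at 2.37, 2.31 and 2.38 FPKM in the WT livers, against 3.24, 4.86 and 2.96 in KO livers (0.46, SE 0.18, adjusted p = 0.314). Rad51d, a relative of Rad51b and Rad51c, stood at 0.976, 0.924 and 0.800 FPKM in the WT livers, against 1.37, 1.71 and 1.5 in KO livers, separated in the opposite direction to Rad51b (0.41, SE 0.16, adjusted p = 0.315).

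Among 17 tested further checkpoint genes, Rad1, a subunit of the clamp that helps to activate ATR, was lower in every KO library, at 3.57, 3.84 and 4.32 FPKM in the WT livers, against 2.56, 2.52 and 2.62 in KO livers (-0.46, SE 0.13, adjusted p = 0.238). Trp53, the tumour suppressor downstream of ATM and CHEK2, stood at 7.39, 6.37 and 10.4 FPKM in the WT livers, against 12.8, 12.3 and 12.8 in KO livers (0.62, SE 0.19, adjusted p = 0.248), with no overlap. In the Fanconi list, Apitd1 (1.30 to 3.65 FPKM in KO, 0.305 to 1.62 in WT) and Rfwd3 (6.27 to 12.3 and 4.72 to 8.37) overlapped between genotypes. So did the mismatch repair gene Msh3, with 2.01, 2.11 and 4.55 FPKM in the WT livers, against 2.99, 3.79 and 2.92 in KO livers. The end joining genes Dclre1b and Tdp1 overlapped too, with adjusted p of 0.389 and 0.443.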

How the data were processed

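RNA sequencing of liver at 40 h after hepatectomy was used, 3 WT and 3 KO libraries. The deposited table holds FPKM per locus, per the file headers, on mm10, as the authors made them; the submitters' processing notes name TopHat, edgeR, mm9 and mm10 without roles. The counting and the filters behind the values are not stated in the labels used here. Relative depth was taken from the most frequent ratio of the lowest values between libraries. Of 23847 loci, 312 without values (LOWDATA) were left out. The floor of 0.001 was set to 0. Positions are counted from 1. FPKM depends on the library total, so abundant transcripts shift all others.

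KO and WT were compared on log2(FPKM + 1) with limma 3.58.1 in R 4.3.3 (lmFit, two-sided, eBayes with trend; Benjamini-Hochberg over 10956 genes whose mean FPKM reached 1; called at an adjusted p under 0.05). The fit was also run on simulated data with independent noise for each gene. That simulation holds no differences between libraries shared by many genes, so it does not test how they affect the calls. Single ratios were compared by an exact two-sided permutation test over the 20 assignments of libraries. Alternatives were other pseudocounts, filters and scalings, no trend, a replicate block, other classes and each library left out.

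The members and lists were chosen with earlier results of these data known. Values per library are given for members separated by genotype, for the 2 smallest p and the 2 highest means of each role, and for members under the filter that exceed 1 FPKM somewhere. Other lists give up to 2 genes each by p, and proliferation also Pcna and Mki67; names outside the rule are marked. Some results under this rule are not reported here.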

Additional observations from a re-analysis of the deposited data

How the results depend on the processing

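All results come from 3 libraries per genotype of unknown absolute depth, and members near 1 FPKM are the least precise. Over all genes, 13 were called, 6 with no filter on low values and 47 with a replicate block. Leaving out 1 library gave 0 (without WT replicate 1) to 242 (without KO replicate 2), with 2 without WT replicate 2, 3 without WT replicate 3, 2 without KO replicate 3 and 11 without KO replicate 1. Of the members, 0 were called, and 0 to 1 with 1 library left out; the replicate block called none. Labels do not say that replicate numbers pair libraries. Deviations of same-numbered libraries correlated at -0.08, 0.16 and 0.16, and WT replicates 1 and 2 both correlated best with KO replicate 2 and WT replicate 3 with KO replicate 1. The cell-cycle-linked median ran from 0.47 to 1.07 with 1 library left out, the constitutive median from 0.21 to 0.39 and their gap from 0.17 to 0.72. Under the other alternatives they ran from 0.57 to 0.96, 0.14 to 0.41 and 0.32 to 0.55. Directions turned only for members whose difference was at most 0.26, and the cause was not tested. With a pseudocount of 0.1 Xrcc4 was 0.00528. With median-of-ratios rescaling Nbn was -0.0354 and Xrcc5 -0.0193. With quantile normalization Lig4 was -0.00531, Nbn -0.0593, Pms2 -0.0166 and Xrcc5 -0.0487. With 1 library left out, Msh6 ran from -0.0560 to 0.806, Nbn from -0.0721 to 0.218, Rad52 from -0.0226 to 0.367, Xrcc4 from -0.232 to 0.142, Xrcc5 from -0.00353 to 0.295 and Pms2 from -0.117 to 0.212.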

Other observations

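Genes of excision repair and translesion synthesis were counted among the 127 further repair genes but not yet described. Among 16 tested nucleotide excision repair genes the median log2 difference was 0.13, near the 0.15 of all genes tested. Ddb1 encodes a subunit of the complex that recognises ultraviolet damage. It was steady within each genotype, at 45.6, 45.1 and 45.6 FPKM in the WT livers, against 61.2, 68.6 and 62.1 in KO livers, with no overlap (0.48, SE 0.14, adjusted p = 0.241). Gtf2h1, a subunit of the repair and transcription factor TFIIH, stood at 7.35, 8.42 and 8.49 FPKM in the WT livers, against 10.4, 11.3 and 9.98 in KO livers, also without overlap (0.35, SE 0.13, adjusted p = 0.309).

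Among 15 tested base excision repair genes the median was 0.14. Mpg, a glycosylase that removes alkylated bases, stood at 4.02, 2.83 and 2.76 FPKM in the WT livers, against 4.4, 5.69 and 4.41 in KO livers (0.48, SE 0.18, adjusted p = 0.306), and KO replicate 2 was its highest library. Fen1, the flap nuclease that also processes Okazaki fragments, stood at 2.60, 2.78 and 13.1 FPKM in the WT livers, against 16.3, 8.81 and 17.1 in KO livers, overlapping through KO replicate 2 (1.33, SE 0.55, adjusted p = 0.325).

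Among 10 tested translesion synthesis and fork genes the median was 0.48. Polh, the polymerase that copies past ultraviolet lesions, stood at 1.68, 1.80 and 1.85 FPKM in the WT livers, against 5.12, 2.06 and 4.96 in KO livers (0.79, SE 0.28, adjusted p = 0.292). Its libraries stood in the same pattern as those of Xrcc1, close together in WT, high in KO replicates 1 and 3 and only slightly above WT in KO replicate 2. Smarcal1, which remodels stalled forks, stood at 1.35, 1.27 and 1.04 FPKM in the WT livers, against 1.96, 2.25 and 2.12 in KO livers, without overlap (0.49, SE 0.15, adjusted p = 0.265).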
